A study of Homo sapiens with 12 samples.

Results

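Heat shock proteins and the chaperones that work with them were followed in C4.2B, a human prostate cancer line that grows without androgen. Genes were taken by symbol: those of the HSP90, HSPA, HSPB, HSPD, HSPE, HSPH, DNAJA, DNAJB, DNAJC and CCT series were kept, and HSPBAP1 and HSPBP1, named for binding to chaperones, were left out. This gave 92 genes of the 23228 in the count files, of which 75 had enough reads to be tested. PolyA RNA was sequenced from 12 libraries in 4 arms of 3 replicates (A, B and C). DMSO received vehicle alone, GDC received GDC-0941 (0.5 µM, a pan-PI3K inhibitor), GSK received GSK126 (5 µM, an inhibitor of EZH2), and COMBO both agents at these doses. Every arm spent 24 h with its agents in 10% charcoal-stripped serum, and GSK126 was given for 6 days beforehand in the arms that contain it, so agent and length of exposure cannot be told apart. EZH2 trimethylates histone H3 at lysine 27, and PI3K passes growth factor signals to AKT and mTORC1. All arms come from 1 cell line.

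Chaperones bind unfolded or partly folded proteins and use ATP to release them in a state that can fold. In the cytosol HSP70 proteins work with J-domain partners (the DNAJ proteins, which deliver clients) and with HSP110 proteins (which exchange the nucleotide), HSP90 finishes kinases and steroid receptors, and the ring-shaped CCT complex folds actin and tubulin. The endoplasmic reticulum (ER) and the mitochondrion have HSP70 and HSP90 relatives of their own, the former induced by the unfolded protein response and the cytosolic set by heat shock factor HSF1.

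By compartment, 46 genes were placed in the cytosol and nucleus (37 tested), 14 in the ER (14 tested), 10 in the mitochondrion (9 tested) and 11 elsewhere (7 tested), and 11 were pseudogenes (8 tested). Genes were placed by hand from general knowledge. The places of the little-studied DNAJC4, DNAJC16, DNAJC18 and DNAJC28 are less certain. The 17 genes that were not tested had few reads over the 12 libraries together. Their counts were 56 for DNAJA4, 46 for HSPB6, 38 for DNAJB7, 37 for HSPA1A, 29 for HSPB9, 14 for DNAJC5B, 11 for HSPA7, 10 for DNAJB13, 5 for HSPB2, 4 each for DNAJB3 and HSPB7, 3 for DNAJC15, 2 for DNAJC5G, 1 each for DNAJB8 and HSPB3, and 0 for CCT8L2 and DNAJA1P5.

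The cytosolic and ER genes differed in the letters just upstream of their start sites, and 4 of these sequences are shown because the results below turn on these genes. Windows of 250 bases before to 50 after each start were available from RefSeq (GRCh38.p14) for 72 of the 92 genes. The heat shock element searched was GAANNTTC or TTCNNGAA, each its own reverse complement, and overlapping matches were each counted. It was found in at least 1 window of 21 of 42 cytosolic and nuclear genes, 0 of 13 ER genes and 3 of 10 mitochondrial genes, beside 16.2% of all genes with a window. The upstream stretches of HSPA1A and HSPA1L overlap on opposite strands, and the same element there was counted for both. The ER stress element searched was CCAAT and CCACG parted by 9 bases, on either strand, which was found in HSPA5 and HSP90B1 and in 0.0916% of all genes. The E-box CACGTG was found in 8 of the 72 genes (11.1%, beside 8.77% of all genes), among them DNAJB9, HSPD1, HSPE1 and HSPA9. The stretches below stop before any annotated exon and read toward the gene. They are HSP90AA1 (chr14:102087045-102087294, minus strand), DNAJB1 (chr19:14518408-14518647, minus strand), HSPB8 (chr12:119178681-119178930, plus strand) and HSPA5 (chr9:125241383-125241593, minus strand). Capitals mark heat shock elements in the first 3 and the ER stress element with its spacer in HSPA5. A match describes letters only.
HSP90AA1: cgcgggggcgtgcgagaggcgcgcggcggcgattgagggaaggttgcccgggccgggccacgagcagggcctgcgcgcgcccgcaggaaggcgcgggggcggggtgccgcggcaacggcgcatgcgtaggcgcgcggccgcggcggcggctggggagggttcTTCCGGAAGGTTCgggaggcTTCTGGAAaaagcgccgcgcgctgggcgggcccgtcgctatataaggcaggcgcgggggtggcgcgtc
DNAJB1: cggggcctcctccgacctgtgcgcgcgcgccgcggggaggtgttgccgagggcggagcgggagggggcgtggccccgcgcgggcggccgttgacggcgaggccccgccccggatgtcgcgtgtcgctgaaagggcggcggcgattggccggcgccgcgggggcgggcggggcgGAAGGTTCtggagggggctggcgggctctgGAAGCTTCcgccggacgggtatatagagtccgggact
HSPB8: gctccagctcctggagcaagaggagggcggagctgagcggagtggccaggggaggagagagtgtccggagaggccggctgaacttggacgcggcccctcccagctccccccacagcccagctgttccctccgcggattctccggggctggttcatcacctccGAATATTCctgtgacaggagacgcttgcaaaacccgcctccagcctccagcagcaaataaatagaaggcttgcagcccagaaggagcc
HSPA5: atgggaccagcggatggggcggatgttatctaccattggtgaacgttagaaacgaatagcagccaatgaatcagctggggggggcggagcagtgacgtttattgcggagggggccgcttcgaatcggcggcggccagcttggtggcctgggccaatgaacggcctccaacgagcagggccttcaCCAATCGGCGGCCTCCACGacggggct

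Depth ranged from 8785218 to 44437751 counts in genes per library. Reads in genes made up 75.4% to 76.3% of reads in DMSO, 73.8% to 74.3% in GDC, 70.3% to 71.2% in GSK and 66.3% to 68.5% in COMBO, and the part of this shift in the results below was not tested. Markers of prostate epithelium (among them KLK3, FOLH1 and KRT8) summed to 2913 to 3129.7 CPM (counts scaled to a common library size, after TMM) in DMSO, 4017 to 4116 CPM in GDC, 3903 to 4269.7 CPM in GSK and 4732 to 5100.4 CPM in COMBO. HOXB13 and EPCAM of this list had lower levels in COMBO (304 and 80.3 CPM) than in DMSO (484 and 115 CPM), and the part of these shifts in the results was not tested. By contrast the immune, endothelial and stromal markers PTPRC, CD3E, PECAM1, COL1A2 and DCN were at or near 0. COL1A1 and VWF had low levels that moved with the arms, so that the sum over markers of other cell types was 12.8 to 14.5 CPM in DMSO and 30.4 to 51.0 CPM in the GSK and COMBO libraries. In bulk RNA, fewer cells of a kind and less RNA per cell cannot be told apart.

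Levels between genes were compared in DMSO as CPM per kilobase of the MANE transcript. HSPA8, the constitutive HSP70 of the cytosol, was highest at 1982 ± 67.8 CPM per kb (SD, n = 3), followed by HSP90AA1 at 1585 ± 48.5 and HSP90AB1 at 1369 ± 15.3, the inducible and constitutive forms of cytosolic HSP90. The mitochondrial HSP60, HSPD1, came next at 947 ± 14, and the small heat shock protein HSPB1 followed at 880.1 ± 62.4, with overlapping ranges for these neighbours. The ER HSP90 and HSP70, HSP90B1 and HSPA5, stood at 583 ± 11.5 and 492 ± 10.1. The first 3 and the ER pair did not overlap with their neighbours in this order. The annotation names 17 pseudogenes of HSPA8 and 18 of HSPD1, and the part of shared reads in these levels was not tested. In COMBO the level of HSPD1 was 329.5 ± 16.6 CPM per kb and it ranked 7th, below HSPB1 (611 ± 20.1), HSP90B1 (475 ± 7.75) and HSPA5 (361 ± 1.88).

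Chaperone RNA as a whole was lower in every treated arm, and the summed ER genes and the genes placed elsewhere moved less. The 92 genes together took 2.82% to 2.86% of gene counts in the DMSO libraries, 2.38% to 2.44% in GDC, 2.14% to 2.23% in GSK and 1.64% to 1.68% in COMBO. On the CPM scale their sum was 30580, 30699 and 30148 under DMSO (A, B and C), 25421, 25396 and 24985 under GDC, 21514, 20520 and 20705 under GSK and 15095, 15741 and 15159 under COMBO, so that no libraries of different arms overlapped and COMBO had 0.503 times the DMSO mean. The cytosolic and nuclear genes reached 0.788, 0.639 and 0.453 times the DMSO mean in GDC, GSK and COMBO. The mitochondrial genes reached 0.870, 0.515 and 0.402 times. The ER genes reached 0.976 times in GDC and 1.01 times in GSK, with libraries that overlapped those of DMSO in both arms, and 0.772 times in COMBO, where all 3 libraries lay below DMSO. In GSK the sum over ER genes was 4728, 4355 and 4334, with replicate A above the other two. The 11 genes placed elsewhere, at 448 CPM in DMSO, reached 1.02, 1.08 and 1.08 times. These sums are led by a few genes and carry no test.

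**Figure D1:**
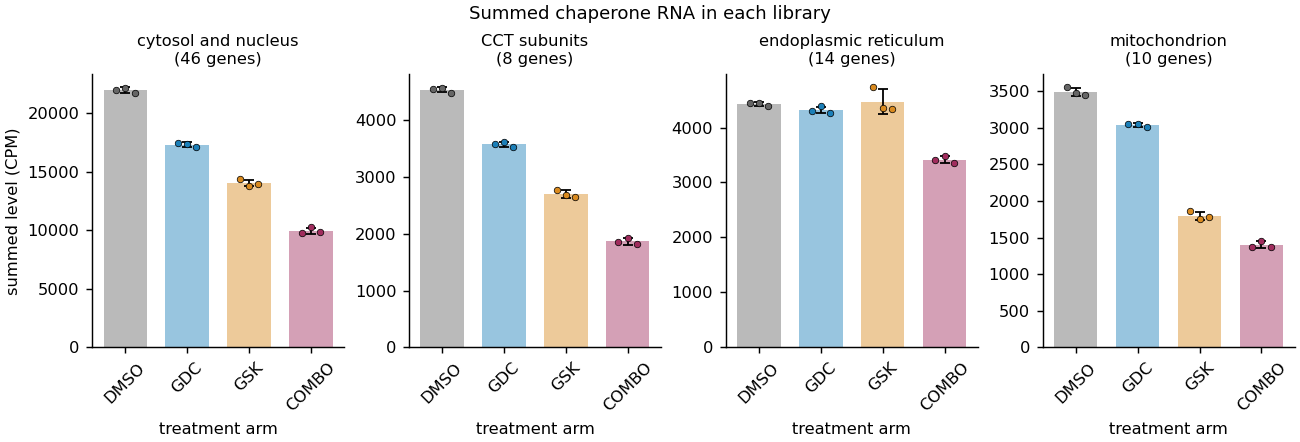
Summed level (CPM, y axis) of the genes of each compartment and of the 8 CCT subunit genes in each treatment arm (x axis). Bars are means of 3 libraries, error bars are SD and points are single libraries. The cytosolic, CCT and mitochondrial sums step down from DMSO to GDC, GSK and COMBO, while the ER sum stays near 4426 CPM in the single-agent arms and is 3416 CPM in COMBO.

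Each arm was then compared with DMSO gene by gene (quasi-likelihood test of edgeR, Benjamini-Hochberg adjustment over 14189 genes, called at an adjusted p under 0.05). In GDC 38 of the 75 genes fell (50.7%, beside 20.0% of all genes tested) and 11 rose (14.7%, beside 20.0%). In GSK 43 fell (57.3%, beside 35.7%) and 17 rose (22.7%, beside 40.0%). Under COMBO 49 fell (65.3%, beside 39.2%) and 13 rose (17.3%, beside 43.3%). The median log2 fold change of the 75 genes was -0.20, -0.42 and -0.72 in the 3 arms, beside 0.0160, 0.0585 and 0.0545 over all genes. The 3 comparisons share the DMSO libraries. The count of higher genes in GDC depended on single libraries: it was 5 without DMSO A, DMSO B or GDC A, 6 without DMSO C or GDC C, and 7 without GSK B. Scaling by library totals in place of TMM raised the median of all genes by 0.15 in GSK and 0.21 in COMBO (log2), and the counts of lower genes were then 35, 38 and 45.

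By compartment, these counts are again read beside those of all genes, of which 20.0%, 35.7% and 39.2% fell and 20.0%, 40.0% and 43.3% rose in GDC, GSK and COMBO. Of the 37 cytosolic and nuclear genes, 27, 28 and 28 fell in GDC, GSK and COMBO and 2, 7 and 4 rose, with medians of -0.25, -0.60 and -1.03 (log2). Of the 9 mitochondrial genes, 4, 6 and 6 fell and 2 rose in each arm, with medians of -0.13, -0.75 and -1.10. Of the 14 ER genes, 6, 5 and 9 fell and 3, 4 and 3 rose, with medians of -0.10, 0.00269 and -0.28. The share of ER genes that fell in GSK (35.7%) equals that of all genes, and the share that rose in GDC (21.4%) is near it. The ER median in GSK ran from -0.079 with no filter to 0.16 with library totals, and the cytosolic median in COMBO was -0.78 without the CCT genes. No test of the difference between compartments was made.

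**Figure D2:**
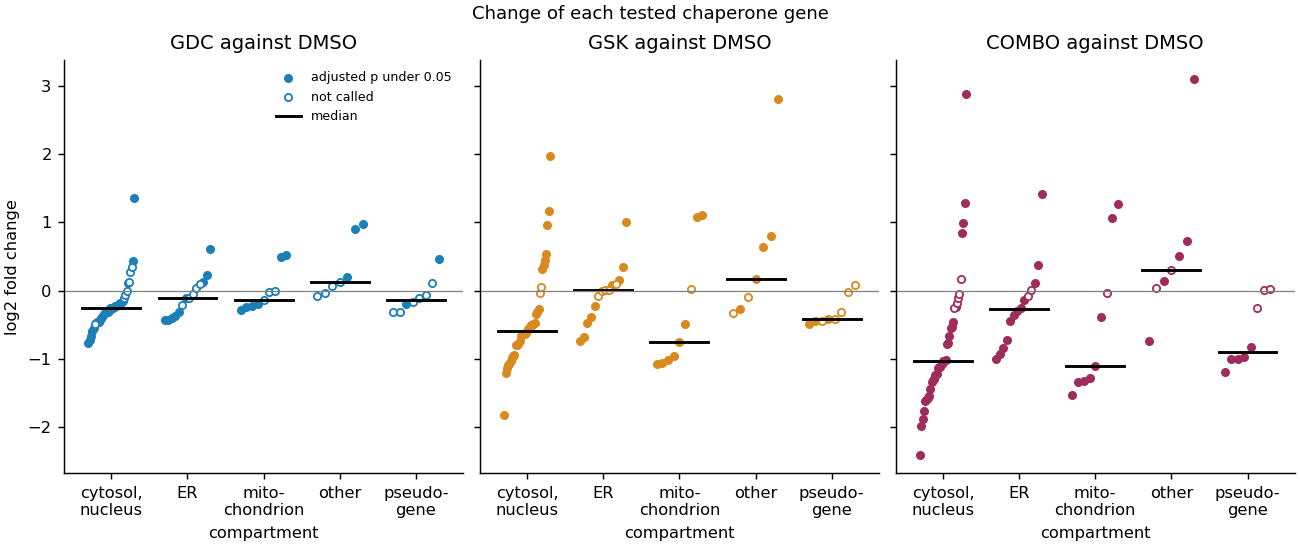
Log2 fold change against DMSO (y axis) of the 75 tested genes, grouped by compartment (x axis), in GDC, GSK and COMBO (panels). Each point is 1 gene, filled where the adjusted p was under 0.05, and black lines are medians. Cytosolic and mitochondrial genes lie mostly below 0 in COMBO, with medians of -1.03 and -1.10, and the ER median is -0.28.

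The main HSP90 and HSP70 genes of the cytosol fell in every arm. HSP90AA1 (chr14:102080742-102139699, minus strand), the inducible HSP90, had 5276, 5109 and 4963 CPM under DMSO (A, B and C), 3887, 3899 and 3841 under GDC, 3374, 3219 and 3312 under GSK and 1999, 2180 and 2042 under COMBO. The 4 arms formed separate, descending groups. On the log2 scale the change was -0.40 ± 0.035 (SE, with an adjusted p of 4.94e-08) in GDC, -0.63 ± 0.035 (SE, with an adjusted p of 2.38e-12) in GSK and -1.30 ± 0.035 (SE, with an adjusted p of 1.43e-17) in COMBO. HSP90AB1, the constitutive HSP90, had 3507, 3533 and 3456 CPM under DMSO and 1657, 1744 and 1742 under COMBO, and fell by 0.25, 0.61 and 1.03 on the log2 scale in GDC, GSK and COMBO. HSPA8 (chr11:123057489-123063230, minus strand) had 4318, 4618 and 4525 CPM under DMSO, 3782, 3597 and 3543 under GDC, 2943, 2811 and 2758 under GSK and 2221, 2236 and 2184 under COMBO, again without overlap between arms. It fell by 0.30, 0.66 and 1.02 on the log2 scale.

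HSP110 proteins recharge HSP70 with ATP and help to dissolve aggregates. Of their genes, HSPH1 and HSPA4L moved further than those above, while HSPA4 stood near HSP90AA1 in GDC and COMBO. HSPH1, whose product is also called HSP105, had 947, 935 and 937 CPM under DMSO, 553, 546 and 554 under GDC, 463, 428 and 433 under GSK and 234, 248 and 234 under COMBO, with no overlap between arms. Its log2 fold change was -0.77 ± 0.039 (SE, with an adjusted p of 4.41e-11) in GDC, the largest fall of any tested member in that arm, -1.09 ± 0.040 (SE, with an adjusted p of 6.27e-15) in GSK and -1.98 ± 0.041 (SE, with an adjusted p of 3.78e-19) in COMBO. HSPA4 fell by 0.38, 0.73 and 1.30 in GDC, GSK and COMBO, and HSPA4L by 0.58, 0.95 and 1.57 (log2). All 3 HSP110 genes therefore fell in all 3 arms.

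J-domain proteins set which client HSP70 binds. DNAJA1, a major partner of HSPA8, fell by 0.46, 0.80 and 1.54 on the log2 scale in GDC, GSK and COMBO. DNAJB1, the heat-inducible HSP40, had 141, 144 and 141 CPM in DMSO, 95, 99.8 and 97.8 under GDC, 97.1, 97.5 and 99.7 under GSK and 62.9, 66.9 and 64.4 under COMBO. The single-agent arms overlapped each other and lay between DMSO and COMBO, with log2 fold changes of -0.54 ± 0.045, -0.53 ± 0.045 and -1.13 ± 0.045 (SE, all called). Exons of DNAJB1 overlap those of TECR, and the use of strand in counting was not stated. The partner pair on the ribosome, which receives chains as they leave it, fell as well: HSPA14 by 0.66, 1.02 and 1.76, and DNAJC2 by 0.45, 1.14 and 1.34 (log2).

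DNAJC9, a J-domain protein that escorts histones H3 and H4, had 80.9, 84.4 and 81 CPM under DMSO, 68.7, 61.5 and 65.4 under GDC, 39, 34.3 and 34.4 under GSK and 21.8, 22.3 and 22.9 under COMBO. The arms did not overlap. Relative to DMSO its log2 change was -0.34 ± 0.055 (SE, with an adjusted p of 7.53e-05) in GDC, -1.20 ± 0.061 (SE, with an adjusted p of 6.04e-13) in GSK and -1.88 ± 0.061 (SE, with an adjusted p of 1.95e-16) in COMBO. Its exons overlap those of FAM149B1. HSPA1B, an inducible HSP70, had 135, 136 and 131 CPM under DMSO and 55.7, 68.6 and 61.1 under COMBO and fell by 0.24, 0.95 and 1.11 (log2). Its near-identical neighbour HSPA1A had 37 counts in all, so the share of reads assigned to either copy is uncertain. HSPA6, an HSP70 expressed on strong stress, had 1.77 to 2.05 CPM in DMSO and 0.464, 0.222 and 0.437 under COMBO, with a log2 fold change of -2.40 ± 0.31 (SE, with an adjusted p of 6.02e-07).

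The small heat shock proteins, which hold unfolded clients without ATP, did not follow this order. HSPB1 (chr7:76302673-76304295, plus strand), also known as HSP27, had 635, 732 and 685 CPM under DMSO, 587, 588 and 591 under GDC, 717, 711 and 703 under GSK and 466, 465 and 493 under COMBO. GSK overlapped DMSO, and GDC and COMBO lay below it. The log2 fold change was -0.22 ± 0.044 (SE, with an adjusted p of 6.44e-04) in GDC, 0.0538 ± 0.044 (SE, with an adjusted p of 0.278) in GSK and -0.53 ± 0.045 (SE, with an adjusted p of 9.29e-10) in COMBO. HSPB8 (chr12:119171555-119224855, plus strand), which works with BAG3 in the removal of aggregates, had 5.58, 3.98 and 5.05 CPM under DMSO, 3.27, 2.40 and 3.15 under GDC, 8.90, 10.7 and 8.56 under GSK and 3.60, 3.64 and 5.10 under COMBO. It was low in all arms, fell in GDC and rose in GSK without overlap, and in COMBO overlapped DMSO. Its log2 fold change was -0.73 ± 0.18 (SE, with an adjusted p of 0.00349) in GDC, 0.96 ± 0.15 (SE, with an adjusted p of 1.24e-05) in GSK and -0.26 ± 0.16 (SE, with an adjusted p of 0.153) in COMBO.

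Cytosolic and nuclear genes fell in most cases with and without a heat shock element, and their medians were lower with it in each arm. Of all genes tested, 20.0%, 35.7% and 39.2% fell in GDC, GSK and COMBO. Of the 16 tested genes with a match, 13, 12 and 12 fell in GDC, GSK and COMBO, with medians of -0.31, -0.62 and -1.07 (log2). Of the 18 with a window and no match, 12, 13 and 13 fell, with medians of -0.20, -0.54 and -0.90. Within the genes with a match, changes in COMBO ran from -2.40 (HSPA6) to 2.89 (CCT6B). HSPA1L, which shares its upstream element with HSPA1A, is among them. These are descriptions of the windows searched and carry no test.

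**Figure D3:**
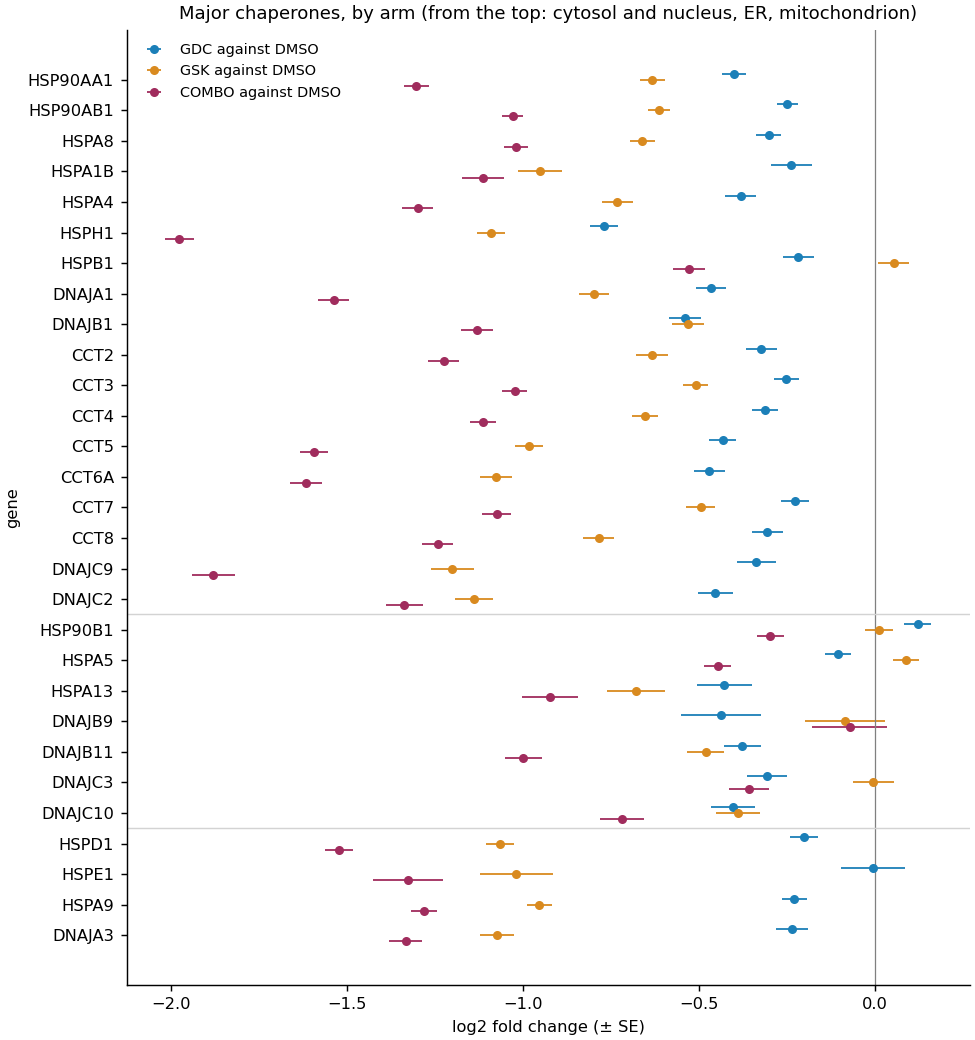
Log2 fold change against DMSO (x axis) of the 29 major chaperone genes that were tested (y axis) in GDC, GSK and COMBO. Points are estimates, horizontal bars are SE, and grey lines part the cytosolic and nuclear, ER and mitochondrial genes. For most cytosolic genes the 3 arms stand in the order GDC, GSK, COMBO, while HSPB1, HSP90B1 and HSPA5 lie near 0 in GSK.

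All subunits of the CCT ring that are made in most cells fell in all 3 arms. The ring is built from TCP1, whose symbol lies outside the naming rule, and from CCT2, CCT3, CCT4, CCT5, CCT6A, CCT7 and CCT8. CCT5 (chr5:10249929-10266389, plus strand) had 757, 767 and 754 CPM under DMSO, 573, 567 and 549 under GDC, 386, 383 and 384 under GSK and 241, 264 and 249 under COMBO. As for each of the other CCT genes just listed, no libraries of different arms overlapped. Its log2 fold change was -0.43 ± 0.039 (SE, with an adjusted p of 7.94e-08) in GDC, -0.98 ± 0.040 (SE, with an adjusted p of 2.31e-14) in GSK and -1.59 ± 0.040 (SE, with an adjusted p of 4.90e-18) in COMBO. Over the 7 member subunits the change in COMBO ran from -1.62 (CCT6A) to -1.02 (CCT3), and TCP1 had -0.40, -1.09 and -1.63 in GDC, GSK and COMBO (log2). Per kilobase, the mean levels of the 8 ring subunits in DMSO lay between 197 (CCT4) and 445 CPM per kb (CCT3), a ratio of 2.25, and in COMBO between 76.3 (CCT5) and 219 (CCT3), a ratio of 2.86.

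CCT6B, a relative of CCT6A known from testis, went the other way at a low level. It had 0.632, 1.05 and 1.35 CPM under DMSO, 2.56, 3.45 and 2.75 under GDC, 4.62, 4.51 and 4.49 under GSK and 7.37, 9.76 and 8.37 under COMBO. The arms did not overlap, and DMSO was lowest. On the log2 scale the change was 1.36 ± 0.22 (SE, with an adjusted p of 8.06e-05) in GDC, 1.97 ± 0.21 (SE, with an adjusted p of 6.80e-08) in GSK and 2.89 ± 0.18 (SE, with an adjusted p of 7.86e-12) in COMBO, the largest rise of a cytosolic member in each arm. Its exons overlap those of LIG3, and reads of the 2 genes cannot be told apart there without strand.

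In the ER, the 2 most abundant chaperones held close to their DMSO level under each single agent and fell in COMBO. HSPA5 (chr9:125234853-125241382, minus strand), the ER HSP70 also called BiP or GRP78, had 1899, 1974 and 1914 CPM under DMSO, 1791, 1844 and 1745 under GDC, 2178, 2018 and 1961 under GSK and 1414, 1423 and 1409 under COMBO. COMBO lay below all other libraries, GDC just below DMSO, and GSK overlapped DMSO. Relative to DMSO its log2 change was -0.11 ± 0.038 (SE, with an adjusted p of 0.0319) in GDC, 0.0891 ± 0.038 (SE, with an adjusted p of 0.0387) in GSK and -0.45 ± 0.038 (SE, with an adjusted p of 9.72e-10) in COMBO. The rise in GSK lost its call in 14 of 19 other settings and the fall in GDC in 1. No heat shock element was found in its window, and the ER stress element of the sequence shown above lies just upstream of its start.

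HSP90B1 (chr12:103930107-103953931, plus strand), the ER HSP90 also called GRP94, had 1660, 1603 and 1606 CPM under DMSO, 1768, 1763 and 1765 under GDC, 1757, 1565 and 1589 under GSK and 1322, 1342 and 1299 under COMBO. GDC lay above DMSO, GSK overlapped it and COMBO lay below. The log2 fold change was 0.12 ± 0.039 (SE, with an adjusted p of 0.0175) in GDC, a call that was lost in 12 of 19 other settings, 0.0121 ± 0.039 (SE, with an adjusted p of 0.789) in GSK and -0.30 ± 0.039 (SE, with an adjusted p of 6.72e-07) in COMBO. In COMBO both genes fell below either single-agent arm: against GDC and GSK, HSPA5 fell by 0.34 and 0.54 and HSP90B1 fell by 0.42 and 0.31 (log2).

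The J-domain partners of HSPA5 split. DNAJB11 (ERdj3), which binds clients in the lumen, had 165, 171 and 156 CPM under DMSO, 125, 133 and 121 under GDC, 122, 113 and 119 under GSK and 82.6, 84.5 and 79 under COMBO. The single-agent arms overlapped each other, both lay below DMSO, and COMBO was lowest, with a log2 fold change of -1.0 ± 0.052 (SE, with an adjusted p of 4.42e-13). DNAJC10 (ERdj5), a reductase of disulfide bonds, fell by 0.40, 0.39 and 0.72, and HSPA13, an HSP70 of the ER lumen, by 0.43, 0.68 and 0.92 (log2). DNAJC3 (P58IPK) had 134, 122 and 125 CPM under DMSO, 95.9, 105 and 106 under GDC, 132, 124 and 123 under GSK and 97.2, 106 and 92.8 under COMBO. The libraries with GDC-0941 were low and the 2 other arms overlapped. Its log2 fold change was -0.31 ± 0.058 (SE, with an adjusted p of 2.98e-04) in GDC, -0.00459 ± 0.058 (SE, with an adjusted p of 0.945) in GSK and -0.36 ± 0.057 (SE, with an adjusted p of 8.96e-06) in COMBO, and with library totals its value in GSK was 0.15 (adjusted p = 0.0190).

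DNAJB9 (ERdj4), a target of the unfolded protein response, had 24.5, 27.5 and 27.4 CPM under DMSO, 17.2, 22.2 and 19.4 under GDC, 26.2, 25.3 and 24.4 under GSK and 25, 30.4 and 20.0 under COMBO. It was low in GDC, at -0.44 ± 0.11 (SE, with an adjusted p of 0.00462), and had values of -0.0852 in GSK and -0.0718 in COMBO that were not called, with overlapping libraries. Of the 14 genes placed in the ER, DNAJC18 and DNAJC16 rose in every arm, and the place of both is less certain. DNAJC18, a J-domain protein placed in the ER membrane, had 6.74, 5.42 and 6.42 CPM under DMSO, 10.2, 9.61 and 8.72 under GDC, 11.2, 11.5 and 14.6 under GSK and 18.2, 15.6 and 15.4 under COMBO, without overlap. On the log2 scale the change was 0.62 ± 0.13 (SE, with an adjusted p of 6.99e-04) in GDC, 1.01 ± 0.13 (SE, with an adjusted p of 4.53e-07) in GSK and 1.41 ± 0.11 (SE, with an adjusted p of 5.18e-10) in COMBO. The remaining ER genes (DNAJB12, DNAJB14, DNAJC1, DNAJC14 and DNAJC25) had changes in COMBO from -0.83 (DNAJC25, called) to 0.11 (DNAJC14, called).

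In the mitochondrion the main folding genes changed less in GDC than in GSK and COMBO, and HSPD1 and HSPA9 were called lower in every arm. HSPD1 (chr2:197486584-197516737, minus strand), the HSP60 that encloses imported proteins, had 2162, 2104 and 2112 CPM under DMSO, 1859, 1861 and 1824 under GDC, 1061, 976 and 1012 under GSK and 726, 782 and 712 under COMBO. The arms did not overlap, and the widest step lay between GDC and GSK. Relative to DMSO its log2 change was -0.20 ± 0.039 (SE, with an adjusted p of 3.90e-04) in GDC, -1.06 ± 0.040 (SE, with an adjusted p of 7.84e-15) in GSK and -1.52 ± 0.040 (SE, with an adjusted p of 9.09e-18) in COMBO, the largest change of a mitochondrial member there. HSPE1, the HSP10 lid of HSPD1, had 47, 44.3 and 43.8 CPM under DMSO, 43.1, 45.1 and 45.5 under GDC, 21.2, 20.1 and 25 under GSK and 17.6, 21.2 and 13.8 under COMBO. GDC overlapped DMSO and COMBO overlapped GSK, with log2 fold changes of -0.00525 ± 0.091 (SE, with an adjusted p of 0.972), -1.02 ± 0.10 (SE, with an adjusted p of 2.36e-08) and -1.33 ± 0.099 (SE, with an adjusted p of 1.30e-10) in GDC, GSK and COMBO. The annotation names 26 pseudogenes of HSPE1 and 18 of HSPD1, and the annotated span of HSPE1 lies within that of HSPD1 on the other strand, with exons that overlap, so the counts of HSPE1 in particular are uncertain.

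HSPA9 (mortalin), the HSP70 that pulls proteins through the inner membrane, had 825, 804 and 786 CPM under DMSO, 689.6, 679.9 and 691 under GDC, 424, 414 and 409 under GSK and 327, 337 and 329 under COMBO. The arms again did not overlap. The log2 fold change was -0.23 ± 0.036 (SE, with an adjusted p of 4.95e-05) in GDC, -0.95 ± 0.037 (SE, with an adjusted p of 1.16e-14) in GSK and -1.28 ± 0.037 (SE, with an adjusted p of 2.94e-17) in COMBO. Its J-domain partner DNAJA3 fell by 0.23, 1.07 and 1.33, and DNAJC11, which takes part in cristae organisation, by 0.29, 0.75 and 1.10 (log2). DNAJC19, a relative of the import motor, had -0.13 (not called), -0.49 and -0.38, and DNAJC30 had -0.0195, 0.0207 and -0.0278 with no call. DNAJC4 and DNAJC28, whose place in the mitochondrion is less certain, rose in all 3 arms. DNAJC4 had 18.4, 21.5 and 20.6 CPM under DMSO, 28.7, 30.7 and 28.2 under GDC, 43.4, 47.9 and 40.4 under GSK and 46.8, 50.6 and 50.6 under COMBO, so that every treated library lay above DMSO and the arms with GSK126 overlapped. Its log2 fold change was 0.52 ± 0.076, 1.11 ± 0.075 and 1.27 ± 0.071 (SE, all called), and its exons overlap those of NUDT22.

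**Figure D4:**
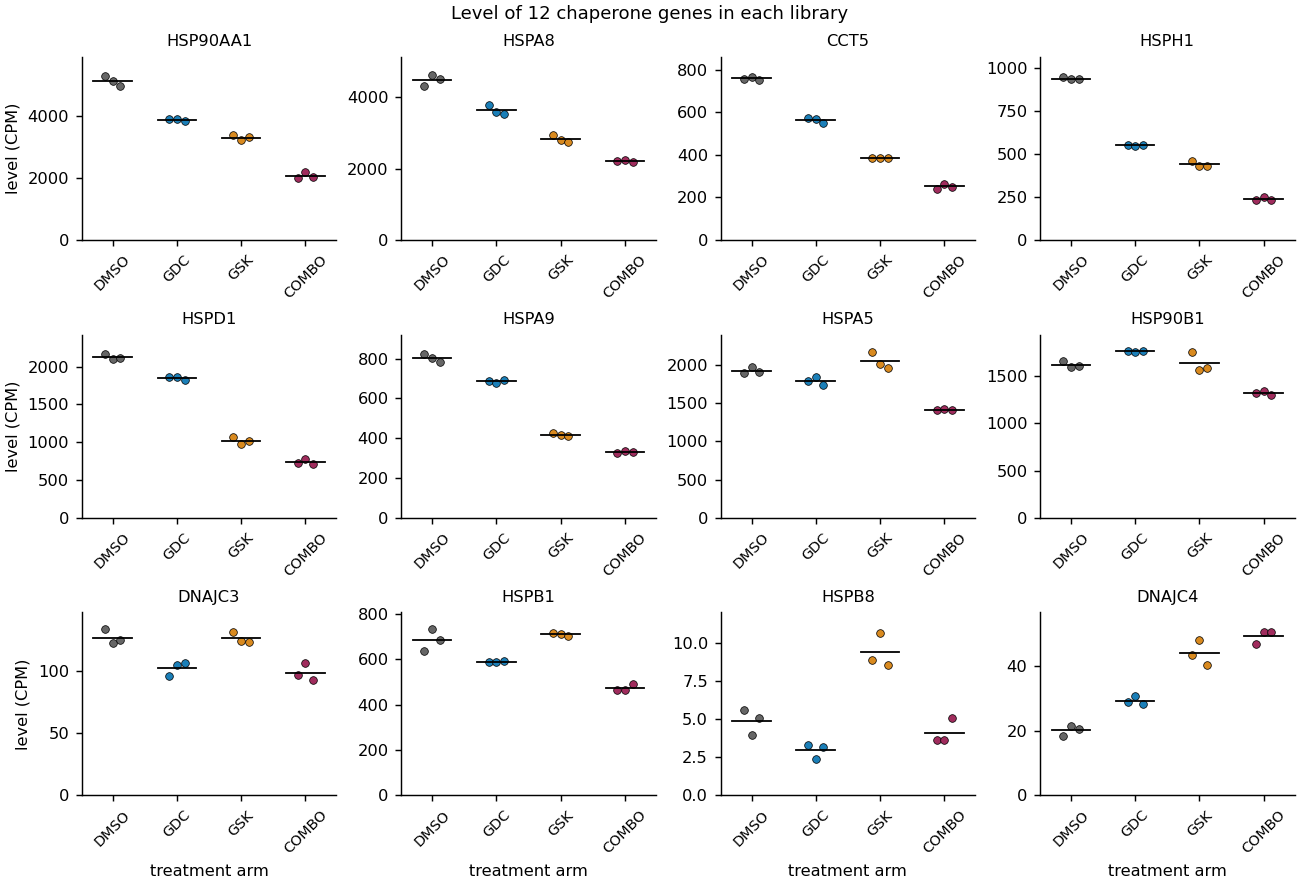
Level (CPM, y axis, from 0) of 12 chaperone genes in each treatment arm (x axis). Points are single libraries and lines are means of 3. HSP90AA1, HSPA8, CCT5, HSPH1, HSPD1 and HSPA9 step down without overlap from DMSO to COMBO, HSPA5 and HSP90B1 are lowest in COMBO, DNAJC3 is low in both arms with GDC-0941, HSPB8 is highest in GSK, and DNAJC4 rises.

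Of the 25 tested DNAJC genes, 7, 10 and 9 rose in GDC, GSK and COMBO (28.0%, 40.0% and 36.0%, beside 20.0%, 40.0% and 43.3% of all genes). In the same arms 8, 10 and 11 fell (32%, 40% and 44%, beside 20.0%, 35.7% and 39.2%). Their median log2 fold changes were -0.064, -0.0046 and -0.028. DNAJC6 (auxilin), which strips clathrin from vesicles, had 1.89, 0.885 and 1.54 CPM under DMSO, 2.39, 2.71 and 2.75 under GDC, 9.78, 9.41 and 10.7 under GSK and 12.1, 11.8 and 12.7 under COMBO. The arms did not overlap. On the log2 scale the change was 0.90 ± 0.20 (SE, with an adjusted p of 0.00161) in GDC, 2.81 ± 0.17 (SE, with an adjusted p of 5.95e-12) in GSK and 3.10 ± 0.15 (SE, with an adjusted p of 1.61e-13) in COMBO, the largest rise of any member in the latter arms. DNAJB2, which sorts ubiquitylated clients to the proteasome, had 40.1, 39.1 and 35.3 CPM under DMSO, 41.3, 42.7 and 39.4 under GDC, 88.1, 84.6 and 82.4 under GSK and 85.5, 97 and 93.7 under COMBO. GDC overlapped DMSO (0.13, not called), and the arms with GSK126 overlapped each other at 1.17 ± 0.063 in GSK and 1.29 ± 0.061 in COMBO (log2, SE, both called).

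DNAJC27, a small GTPase with a J domain, rose by 0.44, 0.38 and 0.85 in GDC, GSK and COMBO, and HSPA1L, an HSP70 known from testis, rose by 0.54 in GSK and 1.0 in COMBO (log2). Among the 7 tested genes outside the 3 compartments, 3, 4 and 4 rose in GDC, GSK and COMBO and 0, 1 and 1 fell, so that 42.9%, 57.1% and 57.1% rose beside 20.0%, 40.0% and 43.3% of all genes. The fall was HSPB11, a subunit of intraflagellar transport despite its name, at -0.26 in GSK and -0.74 in COMBO. HSPA12B, an endothelial HSP70 relative, had 0.498 to 0.632 CPM in DMSO and 0.678 to 1.41 CPM in GDC, and its rise of 0.97 there lost its call in 7 of 18 other settings. DNAJC13, which acts at endosomes, had -0.0805, -0.0874 and 0.0363 with no call.

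Pseudogenes of the HSP90 and CCT6 genes were counted under their own names, and 1, 3 and 5 of the 8 tested fell in GDC, GSK and COMBO (12.5%, 37.5% and 62.5%, beside 20.0%, 35.7% and 39.2% of all genes). HSP90AB3P was the most abundant, at 126 CPM in DMSO, and its changes of -0.20, -0.49 and -0.97 stood beside -0.25, -0.61 and -1.03 for HSP90AB1 (log2). HSP90AA4P had the largest change of a pseudogene in COMBO, at -1.20, beside -1.30 for HSP90AA1, and HSP90B3P rose in GDC by 0.47, beside 0.12 for HSP90B1. Reads of such copies can be shared with the parent gene, so none of these values is taken as that of a separate gene.

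COMBO was also set against each single agent, which asks what the second agent added. Against GDC, 46 of the 75 genes fell (61.3%, beside 38.0% of all genes) and 13 rose (17.3%, beside 37.9%), with a median log2 fold change of -0.58. The largest falls among genes with a mean log2 CPM of at least 2 were those of DNAJC9 (-1.54), HSPE1 (-1.32), HSPD1 (-1.32) and HSPH1 (-1.21), and the largest rises those of DNAJC6 (2.20), CCT6B (1.53), DNAJB2 (1.16) and DNAJC18 (0.79). Against GSK, 41 fell (54.7%, beside 26.9%) and 5 rose (6.67%, beside 19.0%), with a median of -0.31. The largest falls there were those of HSPB8 (-1.22), HSP90AA4P (-0.89), HSPH1 (-0.88) and DNAJA1 (-0.74). The rises were those of CCT6B (0.92), CCT6P3 (0.47), DNAJC27 (0.47), HSPA1L (0.45) and DNAJC18 (0.40). That count of 5 was 9 without DMSO A, GDC A or GDC B, and 8 without DMSO B or COMBO A. With library totals 10 genes rose and 34 fell against GSK, and 21 rose and 42 fell against GDC.

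By compartment, the mitochondrial median was -0.81 against GDC and -0.26 against GSK, and 6 and 5 of 9 genes fell. The ER median was -0.13 and -0.15, and 7 and 8 of 14 genes fell. The cytosolic median was -0.77 and -0.46, with 27 and 24 of 37 genes lower. Of all genes, 38.0% fell against GDC and 26.9% against GSK, and no test of the difference between compartments was made. Both comparisons share the COMBO libraries.

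Whether COMBO equalled the single-agent changes added together was tested by an interaction term (the change from GSK to COMBO less that from DMSO to GDC, log2). HSPA5 and HSP90B1 departed most clearly among the abundant genes: HSPA5 had an interaction of -0.43 ± 0.053 (SE, with an adjusted p of 8.66e-06) and HSP90B1 of -0.43 ± 0.055 (SE, with an adjusted p of 1.24e-05), so COMBO was lower than the single changes add up to. HSPB1 (-0.36 ± 0.063 (SE, with an adjusted p of 3.08e-04)), CCT7 (-0.35 ± 0.058 (SE, with an adjusted p of 1.79e-04)) and HSP90AA1 (-0.27 ± 0.049 (SE, with an adjusted p of 5.18e-04)) were called in the same direction, and these 5 calls held in all 18 other settings tried for them. In the positive direction DNAJC2 (0.26), DNAJB4 (0.46) and the pseudogene CCT6P3 (0.79) were called, and held as well. HSPA8 (-0.0566), HSPH1 (-0.11) and HSPA9 (-0.10) had no call.

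In all, 20 of 75 genes had a negative interaction (26.7%, beside 16.5% of all genes tested) and 3 a positive one, beside 4.86% of all genes, with a median of -0.14 beside -0.0627 over all genes. These counts were not stable. The negative calls were 8 without GDC A or GDC B, 9 without GSK A or COMBO A, 11 without DMSO A, DMSO C or GSK B, and 12 without GDC C. The positive ones ran from 3 to 7: they numbered 5 without DMSO C, GDC A, GSK C or COMBO C, 6 without DMSO A, DMSO B, GDC B or GDC C, and 7 without COMBO A. Other scalings and filters moved the balance too: there were 7 positive and 15 negative calls with DESeq2 size factors, 7 and 14 in DESeq2, 9 and 8 with no filter, and 7 and 13 with a mean of at least 1 CPM. With no filter the median interaction of the 14189 genes was 0.0348 in place of -0.0627. Calls that were lost in at least 11 of the 18 other settings were those of HSPA4, CCT5, HSP90AB1, HSP90AB3P, HSP90AA4P and DNAJC4. By compartment 11 cytosolic, 2 ER and 2 mitochondrial genes were negative.

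**Figure D5:**
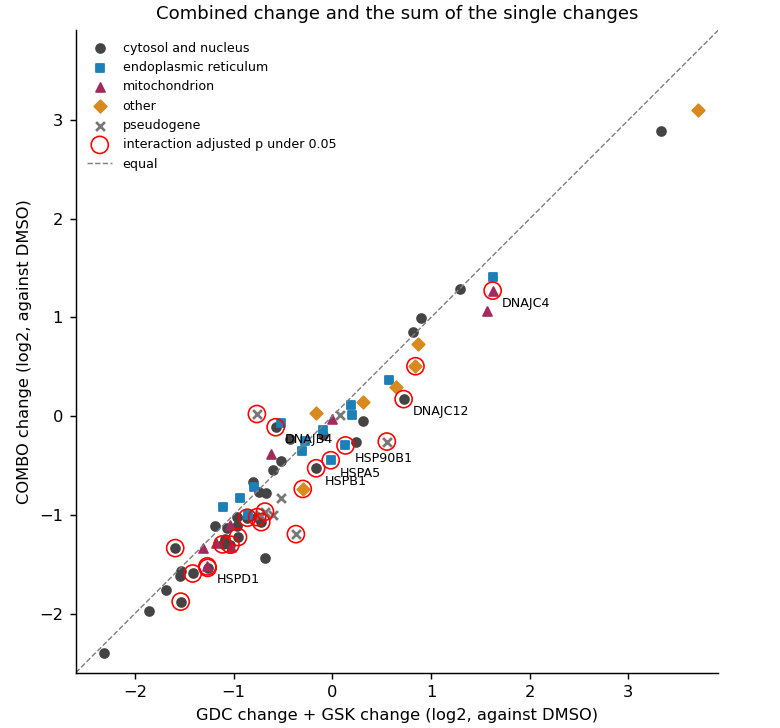
Log2 change in COMBO against DMSO (y axis) and the sum of the changes in GDC and GSK (x axis) for the 75 tested genes, with symbols for the compartments. Red circles mark an interaction with an adjusted p under 0.05, and the dashed line marks equality. 58 genes lie below the line, HSPA5 and HSP90B1 among them, beside 8423 of all 14189 genes tested.

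Other genes of these pathways were taken from hand-written lists, whose counts stand beside 20.0%, 35.7% and 39.2% of all genes that fell and 20.0%, 40.0% and 43.3% that rose in GDC, GSK and COMBO. Of the HSP90 and HSP70 co-chaperones, 13, 16 and 17 of 19 fell and 3, 1 and 2 rose in GDC, GSK and COMBO, so that 68.4%, 84.2% and 89.5% fell. CHORDC1, a co-chaperone of HSP90, fell by 1.75 in GSK and 2.30 in COMBO, and FKBP4, an immunophilin of steroid receptor complexes, fell by 1.75 in COMBO. STIP1 (HOP), which joins HSP70 to HSP90, fell by 0.50, 0.91 and 1.69 (log2). BAG1, an exchange factor of HSP70, rose in GDC by 0.35 and had -0.61 in GSK and -0.87 in COMBO, both called. A further list held TCP1, PDCL3 and the prefoldin genes, the last with products that hand actin and tubulin to CCT. Of these genes, 5, 6 and 7 of 8 fell and 1, 1 and 1 rose in GDC, GSK and COMBO.

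Of the ER folding and stress genes, 6, 5 and 11 of 26 fell and 4, 16 and 10 rose in GDC, GSK and COMBO. The shares that fell were 23.1%, 19.2% and 42.3% and those that rose 15.4%, 61.5% and 38.5%, which in GDC and COMBO are near those of all genes. XBP1, a transcription factor of the unfolded protein response, had 229.7, 244 and 239 CPM under DMSO, 167, 171 and 165 under GDC, 279, 285 and 289 under GSK and 167, 178 and 169.6 under COMBO. GSK was above DMSO, and the arms with GDC-0941 were below and overlapped each other, with log2 fold changes of -0.50 ± 0.043, 0.26 ± 0.042 and -0.47 ± 0.043 in GDC, GSK and COMBO (SE, all called). EIF2AK3 (PERK), a stress sensor, rose by 1.04 in GSK and 1.02 in COMBO, and the oxidase ERO1LB rose by 0.41, 0.35 and 0.69. In the interaction 12 of the 26 genes were negative and 1 was positive, beside 16.5% and 4.86% of all genes. These counts were not repeated under the other settings, where the interaction counts of the members were not stable.

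Of the mitochondrial folding and protease genes, 6, 11 and 12 of 13 fell and 0, 0 and 0 rose in GDC, GSK and COMBO, so that 46.2%, 84.6% and 92.3% fell. TRAP1, the mitochondrial HSP90, had 328, 361 and 347 CPM under DMSO, 349.7, 349.5 and 346 under GDC, 213, 196 and 197 under GSK and 149, 147 and 158 under COMBO. GDC overlapped DMSO, and the other arms lay below in the order GSK, COMBO, at -0.78 ± 0.047 (SE, with an adjusted p of 9.18e-12) and -1.19 ± 0.047 (SE, with an adjusted p of 4.58e-15) (log2). GRPEL2, an exchange factor of HSPA9, fell by 0.45, 1.58 and 1.46. The tested genes on the heat shock factor list were HSF1, HSF2, HSF4 and HSBP1, the last named for binding to such factors. Of these genes, 0, 3 and 3 of 4 fell and 0, 1 and 1 rose in GDC, GSK and COMBO. HSF1, which induces the cytosolic set, had 108, 121 and 118 CPM under DMSO, 109, 107 and 101 under GDC, 102, 97.5 and 91.4 under GSK and 87.8, 87.8 and 92 under COMBO. Its log2 fold change was -0.13 in GDC (not called, but called in 14 of 19 other settings), -0.26 in GSK and -0.38 in COMBO. HSF4 rose by 1.46 in GSK and 1.71 in COMBO from a low level of 3.89 to 4.86 CPM in DMSO. It had 12.6, 16.5 and 9.15 CPM under GSK and 24.0, 9.85 and 12.4 under COMBO. These arms overlapped each other, with COMBO A highest.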

How the data were processed

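PolyA RNA of C4.2B cells was sequenced in 12 libraries, 4 arms of 3. The authors aligned reads with STAR (hg38) and used HTSeq to count them over genes. Deposited count values are raw whole numbers, 1 per symbol and library. Versions, annotation and strand were not given in the sources used here, so overlapping genes and near-identical copies are uncertain. Exons of 26 members, HSPA14 and DNAJC2 among them, and of TCP1 overlap those of other counted genes. Not every overlap is named above. A deposited table of counts divided by size factors was not used. Columns that mapped to no library numbered 0, and the 5 summary lines (reads outside genes, ambiguous and multiply aligned reads) stayed out of library sizes and tests.

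Counts were fitted with edgeR 4.0.16 (glmQLFit and glmQLFTest, R 4.3.3) over all 12 libraries with 1 coefficient per arm, TMM scaling and filterByExpr (14189 genes kept, common biological coefficient of variation 0.0499). Tests were two-sided, with a Benjamini-Hochberg adjusted p under 0.05. CPM used TMM-scaled library sizes, and a count of 0 allows up to 3 counts, or 0.0722 to 0.330 CPM, for counting error only. The plates were seeded in triplicate, so p-values measure the spread between these samples. Replicates differed by more than sampling noise (chi-square per degree of freedom 1.76 to 6.18). Compartments, gene lists and members were chosen with earlier results of these data known. Named genes were 30 major chaperones, the 4 members with the largest called change in each direction and comparison (mean log2 CPM of at least 2), the largest called change of each compartment, and, of the other lists (HSP90 and HSP70 co-chaperones, TCP1 and prefoldin, ER folding, mitochondrial folding and proteolysis, heat shock factors), HSF1, TCP1, TRAP1 and the 2 largest called changes in each direction and arm. The TCP1 and prefoldin list also held PDCL3, and the heat shock factor list HSBP1. Further genes were named to complete a group, after their values were seen. GENCODE 44 (hg38) gave coordinates for 91 of 92 members and MANE lengths, and promoter windows are from RefSeq. Some cell type markers are not reported here. Scripts were tested on simulated data. Alternatives were DESeq2 1.42.0, its size factors, no filter, library totals, a minimum mean of 1 CPM, a minimum log2 change of 1 in size, fits of 2 arms only, a replicate block, no CCT genes and leaving out each library.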

Additional observations from a re-analysis of the deposited data

Results flagged for a closer look

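The effect of GDC-0941 differed with and without GSK126 in 23 members, by the interaction term of the fit (adjusted p under 0.05, edgeR). This was 30.7% of the members tested, beside 21.4% of all genes tested. The values below are log2 differences between the effects of GDC-0941 with and without GSK126. The members whose call held in all other settings with a negative value were HSPA5 (-0.43), HSP90B1 (-0.43), HSPB1 (-0.36), CCT7 (-0.35) and HSP90AA1 (-0.27). For HSPB1 the step from DMSO to GDC was -0.22 and that from GSK to COMBO was -0.58, and for HSP90B1 the steps were 0.12 and -0.31. Other cytosolic or nuclear members with a negative value were DNAJC12 (-0.55), DNAJC9 (-0.34), DNAJA1 (-0.27), CCT2 (-0.27), CCT3 (-0.26), HSPA4 (-0.19), CCT5 (-0.18) and HSP90AB1 (-0.17). Mitochondrial members were HSPD1 (-0.26) and DNAJC4 (-0.35). Members elsewhere were HSPB11 (-0.44) and DNAJC22 (-0.34). Pseudogenes were HSP90AA4P (-0.83), HSP90B3P (-0.81) and HSP90AB3P (-0.28). The calls of HSPA4, CCT5, HSP90AB1, HSP90AB3P, HSP90AA4P and DNAJC4 were lost in most of the other settings. The 3 positive values were DNAJC2 (0.26), DNAJB4 (0.46) and CCT6P3 (0.79). DNAJB4, a J-domain protein of the cytosol, fell in GDC (-0.26) and GSK (-0.31) and had -0.11 in COMBO with no call. DNAJC12, a partner of aromatic amino acid hydroxylases, rose in GSK alone of the arms against DMSO (0.45). Of the other pathway genes named, the same term was called for BAG1 (-0.61), TRAP1 (-0.43), FKBP4 (-0.36), STIP1 (-0.28), XBP1 (-0.23) and GRPEL2 (0.57). Arms hold 3 libraries, so single libraries were not tested for distance from their group.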

How the results depend on the processing

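Lower members in each arm against DMSO stayed within 1.5 times their count under all alternatives but the fold threshold. When a log2 change of 1 or more in size was required, members higher numbered 1, 6, 6, 3, 0 and 0 in GDC, GSK, COMBO, COMBO against GDC, COMBO against GSK and the interaction, and members lower 0, 9, 29, 13, 1 and 0. Members higher in GDC were 6 in DESeq2 and 7 with a mean of at least 1 CPM. With library totals 21 were higher in COMBO against GDC, 10 against GSK and 5 in the interaction. With no filter 9 were higher against GSK, 9 had a positive and 8 a negative interaction. With a mean of at least 1 CPM these were 10, 7 and 13, and positive interactions were 7 in DESeq2 and 7 with its size factors.

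Leaving out each library gave 5 to 11 higher and 38 to 41 lower members in GDC, 13 to 17 and 41 to 44 in GSK, 11 to 13 and 48 to 52 in COMBO, 11 to 15 and 44 to 47 against GDC, 5 to 9 and 35 to 41 against GSK, and 3 to 7 positive and 8 to 21 negative interactions. In the same fits the cytosolic median ran from -0.31 to -0.26 in GDC, -0.64 to -0.59 in GSK, -1.08 to -1.02 in COMBO and -0.13 to -0.0117 in the interaction. The ER median ran from -0.17 to -0.11, -0.0772 to 0.0232, -0.32 to -0.26 and -0.0906 to 0.0197, and the mitochondrial median from -0.25 to -0.11, -0.80 to -0.75, -1.15 to -1.08 and -0.11 to -0.0204.

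Medians moved with scaling and filter. The cytosolic median in GDC was -0.29 in DESeq2, -0.29 with its size factors, -0.22 with library totals, -0.31 with no filter and -0.28 with a mean of at least 1 CPM. With library totals the cytosolic, ER and mitochondrial medians were -0.44, 0.16 and -0.60 in GSK and -0.82, -0.0682 and -0.89 in COMBO. With no filter the ER and mitochondrial medians were -0.17 and -0.23 in GDC and -0.0794 and -0.70 in GSK, and the cytosolic and mitochondrial ones -0.85 and -0.79 in COMBO. The median of the 14189 genes tested in the reported fit was itself lower by this setting, at -0.0504 in GDC (from 0.0160) and -0.0266 in GSK (from 0.0585), and all 14 ER genes are tested either way. Over the mitochondrial genes already tested, it gave -1.15 in COMBO, and the value above includes 1 more gene with few reads. In the interaction the medians with no filter changed sign, to 0.0145 (cytosol and nucleus), 0.0319 (ER) and 0.0132 (mitochondrion), while the median of the same 14189 genes went from -0.0627 to 0.0348. Without the CCT genes the cytosolic median in COMBO was -0.78. Among single genes, 6447 of 6765 values kept their side of the threshold, 227 lost the call and 90 gained one. A change of direction was counted only where either fit had a call. It occurred for 1 value (DNAJC3 in GSK, 0.15 with library totals, where the median of all genes shifts by 0.15).

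Whether the letters A, B and C pair the libraries was not settled. Correlations of same-letter deviations ran from -0.084 to 0.19, with 2 of 18 over 0.1, beside -0.15 to 0.10 between different letters. The 2 highest joined GDC and COMBO libraries, at 0.19 (B) and 0.12 (A). In all, 6 of 12 libraries correlated best with their own letter. With the letter as a replicate block, 12 members were higher and 38 lower in GDC, 13 and 49 in COMBO, and 20 had a negative interaction. Depth limits the members under about 2 CPM, such as HSPA6, HSPA12B and CCT6B in DMSO.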
